A study of Sus scrofa with 297 samples.

Results

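The interferon response and immunoproteasome genes are 51 genes chosen by symbol, and 47 of them had a probe set with that symbol alone on the array, of 13755 genes with such a probe set in all. IFI44L, IRF7, HERC5 and PSMB10 had none under their symbol and were not analysed here. Where a gene had several probe sets, the one with the highest mean signal over the pigs was used. The 47 genes are described by role: 22 antiviral effectors, 8 sensors and transcription factors, 7 enzymes of ubiquitin-like modification and ADP-ribosylation, 6 genes of the immunoproteasome and of peptide loading on MHC class I, 2 MHC class II genes and 2 chemokines.

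Interferons are secreted when a cell senses foreign nucleic acid or when lymphocytes are activated. Type I and type III interferons act through a complex that holds STAT2 and IRF9 and switches on antiviral effectors such as the MX, OAS and IFIT proteins, while interferon gamma raises IRF1 and acts on antigen presentation, guanylate-binding proteins and the chemokines CXCL9 and CXCL10. The immunoproteasome replaces catalytic subunits of the standard proteasome and yields peptides that the TAP transporter carries to MHC class I. The liver receives blood from the gut, and its hepatocytes, Kupffer cells and endothelium all respond to interferon.

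Each array of the series held the total RNA of 1 liver, taken from an adult German Landrace pig at slaughter and hybridised to the Affymetrix Snowball design, and all pigs of the series were used. The labels place no pig in a treatment or disease group. They give an animal number and, for 289 pigs, the loin eye area (LEA), the fat area over that muscle (FA) and a ratio of these areas (MFR), which equalled FA divided by LEA within 0.006 in 289 of 289 pigs, so that a high MFR means more fat per muscle. The study's methods state that a veterinary inspection of carcass and organs found no sign of disease, and the sex of the pigs is not in the labels. LEA averaged 43.7 ± 5.96 cm2, FA 14.1 ± 5.23 cm2 and MFR 0.33 ± 0.14 (SD, n = 289).

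The deposited values are log2 signals, and transcripts were tested where their 20th percentile over the pigs was 5.32 or more, among them 46 of the 47 genes. PARP9 lay below this filter with a mean of 4.57. Of 39 other tested probe sets of these genes, 28 had a Spearman's rho over 0.5 with the one used. A low rho was found with another tested probe set of ISG15 (0.236), TRIM21 (0.089), CIITA (0.176), IFI35 (0.284) and TAPBP (0.335), so their values depend on the probe set. Arrays have no read depth, and their number limits the precision. The tissue matched its label, since 8 of 8 hepatocyte markers had mean log2 signals between 10.83 (APOA1) and 13.95 (ALB), against a median of 6.94 over the tested transcripts. The liver was measured in bulk, so fewer cells of a type and less RNA per cell cannot be told apart. The pigs numbered 2313 and 2317 stood apart in the interferon genes but not as arrays: their median Pearson's r with the other arrays was 0.972 each, within the range of 0.953 to 0.979 over all pigs. Counts of spread, the number of genes differing between series, the genes closest to the effectors and the XAF1 correlations are given with and without them. Other results include them unless stated.

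ISG15, a ubiquitin-like protein joined to newly made proteins in the antiviral state, had log2 signals of 6.57 at the lowest, 7.48 at the median and 12.54 at the highest of all livers, so that its highest liver stood 33.4-fold above the median. MX1, a GTPase that traps viral nucleocapsids, ranged over 6.86, 8.59 and 12.46 in the same order, and RSAD2, the radical enzyme viperin, over 5.99, 6.87 and 11.69. IFIT1, which binds RNA lacking the methylated cap of the host, ranged over 5.31, 6.68 and 11.10. In all 4 genes the highest liver was that of pig 2313 and the next that of pig 2317. Pig 2317 had 11.29 for ISG15, 12.31 for MX1, 11.36 for RSAD2 and 11.07 for IFIT1. OAS1, which makes the messenger of the RNase L pathway, had the largest spread of the 47 genes, with an SD of 0.85 and signals of 5.90, 8.83 and 12.56. Its lowest liver lay 2.93 under the median, farther than in any other of the 47 genes, and 27 pigs lay more than 1 under it, against 45 for DDX58.

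Of the other effectors, IFIT2, IFIT3, IFIT5, IFI44, CMPK2, MX2, IFI6, OAS2, EIF2AK2, BST2 and XAF1 each had a highest liver between 2.13 (BST2) and 3.57 (IFIT3) above their median. EIF2AK2, the kinase PKR that halts translation on double-stranded RNA, ranged over 5.69, 7.84 and 10.07, with 18 pigs more than 1 above and 44 pigs more than 1 below the median. ADAR, an RNA-editing enzyme, had an SD of 0.30 and exceeded its median of 8.28 by more than 1 in 2 pigs, by 1.72 in pig 2313 and with a signal of 9.75 in pig 2317. OASL, IFI35 and SAMHD1 stayed within 1 of their median on the high side in all pigs, with highest values 0.72, 0.98 and 0.72 above it. SAMHD1, which degrades deoxynucleotides, was at 9.37 in pig 2313 and 9.64 in pig 2317, both under its median of 9.81. OASL was at 5.83 and 5.97 in these pigs against a median of 5.90, and its 2 other probe sets had a Spearman's rho of 0.15 and 0.12 with the one used.

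Among the sensors, DDX58 (RIG-I), which detects RNA with a free 5′ triphosphate, ranged over 6.76, 8.79 and 11.89, and IFIH1 (MDA5), which detects long double-stranded RNA, over 5.99, 7.73 and 9.97. DHX58 (LGP2), their regulator, ranged over 6.14, 6.73 and 9.03, and DDX60 over 5.16, 6.08 and 9.47. Pigs 2313 and 2317 held the top 2 places in all 4. The transcription factors had shorter tails, with a highest liver 0.46 (IRF8) to 1.69 (IRF1) above the median, against 2.24 (IFIH1) to 3.39 (DDX60) for the sensors. STAT2 had the smallest spread of the 47 genes with an SD of 0.20, and signals of 9.04, 9.83 and 10.60, with the highest value again in pig 2313. IRF9, its DNA-binding partner, ranged over 7.02, 8.65 and 10.20, and pig 2733 was the highest. IRF1 ranged over 6.47, 7.48 and 9.17 with pig 2919 the highest, and IRF8, a factor of myeloid cells, over 5.42, 6.07 and 6.53 with pig 2128 the highest. Pigs 2313 and 2317 had 7.67 and 7.63 for IRF1 and 5.93 and 5.90 for IRF8, within 0.19 of the medians.

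USP18, which removes ISG15 and dampens the type I receptor, ranged over 5.71, 6.85 and 10.42. HERC6 ranged over 6.15, 7.22 and 9.75, DTX3L over 6.10, 7.26 and 9.98, and PARP14 over 5.62, 7.66 and 10.14. TRIM21, an antibody receptor of the cytosol, ranged over 5.79, 6.49 and 8.09, and only pigs 2313 and 2317 exceeded its median by more than 1. PARP9, the partner of DTX3L, had low signals of 3.88, 4.54 and 6.43, and the same pair of pigs was at its top. UBD, a ubiquitin-like tag also called FAT10, ranged over 6.81, 8.87 and 11.16. Pigs 2313 and 2317 had 8.84 and 8.71, both under its median, and the highest livers were those of pigs 2885 (11.16) and 2848 (10.58).

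The immunoproteasome and peptide-loading genes had shorter tails. TAP1, a subunit of the peptide transporter, ranged over 6.41, 7.53 and 9.31, with 9.31 in pig 2313, 9.02 in pig 2317 and 8.63 in pig 2885, and these were the only pigs more than 1 above the median. PSMB8 ranged over 5.57, 7.44 and 9.03, PSMB9 over 5.17, 6.91 and 8.29, and TAP2 over 6.68, 7.26 and 8.21. NLRC5, the transactivator of MHC class I genes, ranged over 6.85, 7.59 and 8.74, and TAPBP, the loading factor tapasin, over 8.15, 9.45 and 10.62. Pig 2313 had the highest value in 5 of these 6 genes, tied with pig 2933 for NLRC5, and TAPBP was highest in pig 2733. CIITA, the transactivator of MHC class II genes, ranged over 6.60, 7.17 and 7.86, and CD74, the class II invariant chain, over 9.64, 10.58 and 11.66. Neither exceeded its median by more than 0.37 in pigs 2313 and 2317, which had 7.07 and 6.86 for CIITA and 10.95 and 10.81 for CD74. CXCL9 ranged over 4.64, 6.26 and 9.90 and was highest in pigs 2885 (9.90) and 2848 (9.44), while CXCL10 ranged over 5.90, 7.19 and 9.92 and was high in both pairs of pigs, with 9.92 in 2313, 9.70 in 2317, 9.48 in 2885 and 9.09 in 2848.

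**Figure D1:**
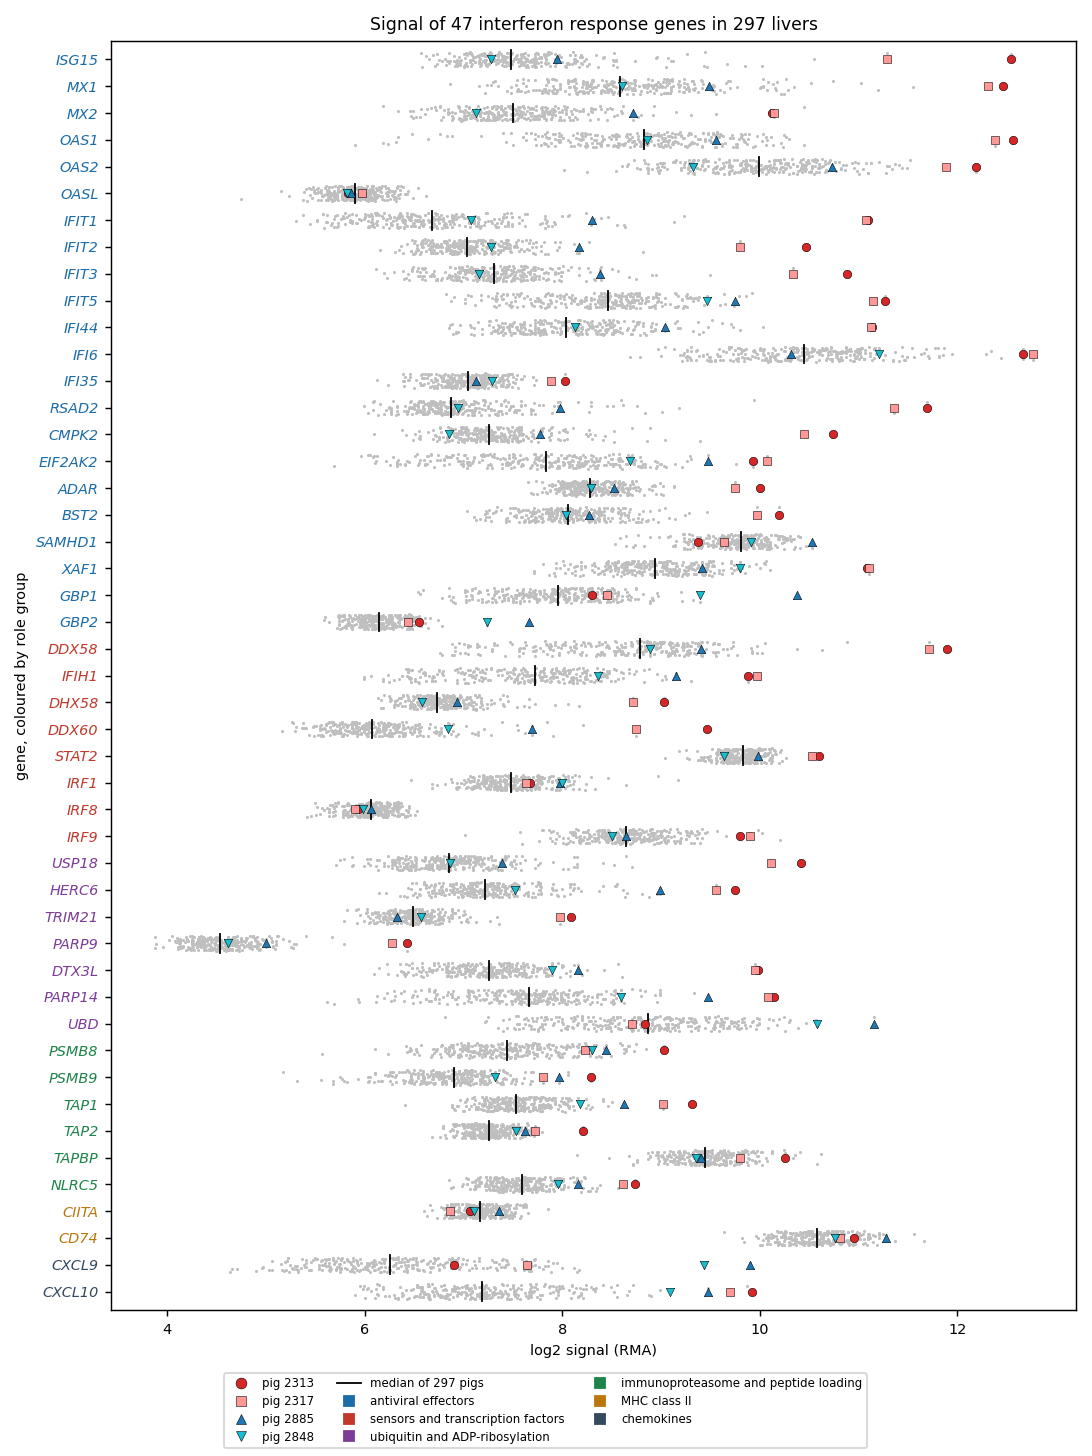
Log2 signal (horizontal axis) of the 47 genes (rows, label colour by role group) in all livers, with 1 grey point per pig, a black line at the median and 4 pigs marked. Pigs 2313 and 2317 lie far right of the other pigs in most effectors and sensors, while pigs 2885 and 2848 lie right in CXCL9, GBP1, GBP2 and UBD.

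The spread over the livers was wider for these genes than for most transcripts on the array. Their SD had a median of 0.52 against 0.27 for the tested transcripts, and 41 of 47 lay above the tested median. A liver more than 1 above the gene's median occurred in 40 of the 47 genes, against 21.6% of the tested transcripts. A liver more than 2 above it occurred in 28 genes against 2.36%, and one more than 3 above it in 13 genes against 0.522%. Without pigs 2313 and 2317, a choice made after the data had been seen, 38 genes had a liver more than 1 above the median (21.4% of the tested transcripts), 14 had one more than 2 above it (2.18%) and 3 had one more than 3 above it (0.397%). The counts at 2 and 3 log2 units thus rested in part on these pigs, whereas 24 genes in place of 26 kept an SD above the 90th percentile of the tested transcripts.

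Pig 2313 was the highest of all pigs in 30 of the 47 genes, against 1.06% of the tested transcripts, and pig 2317 in 4 genes, against 0.450%. They were the top pair in 29 genes. In pig 2313 33 genes and in pig 2317 32 genes exceeded their median by more than 1, against 1.05% and 1.24% of the tested transcripts. The next pigs were 2296 with 23 genes and 2368 with 21, so that 4 pigs had 20 or more. At the other end 179 pigs had none of the genes more than 1 above the median, 90 had 1 to 5, 12 had 6 to 10 and 16 had 11 or more. High levels of these genes were therefore found in few livers.

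By role, the difference from the gene's median had a median of 2.42 in pig 2313 and 2.48 in pig 2317 over the 22 effectors, 1.65 and 1.62 over the 8 sensors and factors, and 1.27 and 0.85 over the 6 immunoproteasome and loading genes. Over the 2 chemokines it was 1.69 and 1.95, and over the 2 MHC class II genes 0.14 and -0.04. Over all tested transcripts it was -0.01 and -0.02. Among markers of other cells, the median difference in pigs 2313 and 2317 was 0.00 and 0.09 for 12 markers of T and NK cells, -0.28 and -0.15 for 4 markers of B and plasma cells, 0.24 and 0.62 for 9 macrophage markers, 0.07 and -0.32 for 6 endothelial markers and -0.07 and -0.04 for 8 hepatocyte markers. Pig 2317 was the highest of all pigs for the macrophage markers CD163 (9.69, against a median of 8.38) and SIGLEC1 (9.25, against 8.18). Pig 2313 had 8.62 and 8.99 for them. MARCO was at 6.03 in pig 2313 and 6.10 in pig 2317, both under its median of 6.20. The 9 macrophage markers ranged between -0.17 and 0.81 around their medians in pig 2313 and between -0.10 and 1.31 in pig 2317. Of the 9, SIGLEC1 had the highest rho over all livers with the mean standardised signal of the 22 effectors (0.300). The endothelial markers ranged between -0.88 and 0.94 around their medians in pig 2313 and between -1.13 and 0.96 in pig 2317. The hepatocyte markers ranged between -0.66 and 0.01 in pig 2313 and between -0.77 and 0.14 in pig 2317. By the mean difference of the hepatocyte markers these pigs ranked 292 and 272 among all pigs, counted from the highest. In the same way they ranked 19 and 2 for the macrophage markers and 117 and 260 for the endothelial markers. The part of macrophages and endothelium in the levels of these pigs was not tested. Both pigs belonged to the animal numbers that start with 23. Pig 2313 had a LEA of 43.6 cm2, an FA of 4.2 cm2 and an MFR of 0.10, and pig 2317 had 48.1 cm2, 15.1 cm2 and 0.31. Their arrays correlated with each other at 0.981, and the highest r between any 2 arrays was 0.991.

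Pigs 2885 and 2848 were the top pair for CXCL9, GBP1, GBP2 and UBD. GBP1, a guanylate-binding protein that attacks vacuoles of intracellular pathogens, was at 10.38 and 9.39 in them, against a median of 7.96 and values of 8.30 and 8.45 in pigs 2313 and 2317. GBP2 was at 7.66 and 7.24, against a median of 6.15. ISG15 was at 7.95 and 7.28 in pigs 2885 and 2848, against a median of 7.48, and MX1 at 9.49 and 8.61, against 8.59. The effectors as a whole had a median difference of 0.82 in pig 2885 and 0.09 in pig 2848, and the chemokines 2.97 and 2.54. Pig 2885 had 18 of the 47 genes more than 1 above the median and pig 2848 had 6. Effectors and sensors were among the 18, with 8.30 for IFIT1 against a median of 6.68, 9.48 for EIF2AK2 against 7.84 and 9.15 for IFIH1 against 7.73. PARP14 was at 9.48 in pig 2885 against a median of 7.66. Markers of T and NK cells had a median difference of 0.68 in pig 2885 and of 0.15 in pig 2848. By the mean difference of these markers pig 2885 was the highest of all pigs. The part of T and NK cells in these levels was not tested. Pig 2885 had 1.86% of all tested transcripts more than 1 above the median, so its array deviated more widely than those of pigs 2313 and 2317.

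Of 7 listed interferon genes only IFNG, IFNE and IFNK had a probe set under their symbol, and their signals were low. IFNB1, IFNL1, IFNL3 and IFNW1 were not analysed here. IFNG had signals of 3.29, 4.03 and 4.87 from lowest to highest, with 3.59 in pig 2313 and 3.72 in pig 2317, and IFNE and IFNK had medians of 3.43 and 4.13, so that all 3 failed the signal filter. Of 13 listed receptors and JAK/STAT genes, 8 were tested. Over these the median difference was -0.01 in pig 2313 and 0.56 in pig 2317, and none of the 8 exceeded its median by more than 1 in either. JAK1, the kinase shared by all interferon receptors, had a median of 10.80, and IFNGR1, a chain of the interferon gamma receptor, a median of 8.31. TLR3, the endosomal receptor for double-stranded RNA, ranged over 8.95, 10.97 and 12.54 and was highest in pig 2313. It is 1 of 12 tested genes of nucleic acid sensing outside the list. Over these 12 the median difference was 0.39 in pig 2313 and 0.43 in pig 2317. Only 1 of them in pig 2313 and 3 in pig 2317 exceeded their median by more than 1.

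Co-expression over all livers was described by Spearman's rho for each of the 1081 pairs of the 47 genes. The median rho was 0.247, against 0.028 over the 310216686 pairs of tested transcripts, and 189 pairs (17.5%) exceeded 0.5, against 3.17%. Of the 1081 pairs 888 were positive (82.1%, against 53.8% of all tested pairs). Below -0.3 lay 36 of the 1081 pairs, against 13.7% of all tested pairs. The median within role groups was 0.335 for the 231 pairs of effectors, 0.122 for the 28 pairs of sensors and factors, 0.238 for the 21 pairs of modifying enzymes and 0.401 for the 15 pairs of immunoproteasome and loading genes. The lowest pair within the immunoproteasome and loading group was PSMB8 with PSMB9 at 0.247, although both encode subunits of the same particle. The 3 other probe sets of PSMB9 had a rho of only 0.38 to 0.49 with the one used, so values of PSMB9 depend on the probe set.

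The closest pair in each role group had a permutation p of 1e-05 for rho and for Pearson's r, the smallest that 100000 permutations can give, and this p takes no account of the choice of the closest pair. DDX58 and IFIH1 had a rho of 0.891 and an r of 0.907 over all livers (permutation test), and an r of 0.900 without the 2 livers farthest from the median. DTX3L and PARP14 had a rho of 0.856 and an r of 0.876 (0.871 without 2 livers), and IFIT5 and EIF2AK2 had 0.853 and 0.872 (0.869). TAP1 and NLRC5, a transporter subunit and the transactivator of its gene class, had 0.707 and 0.760 (0.737). CXCL9 and CXCL10 had 0.571 and 0.587 (0.554), and CIITA and CD74 had 0.521 and 0.534 (0.525). All 6 remained positive within animal number series, with a rho between 0.517 and 0.866, and after removal of 5 principal components, with a rho between 0.331 and 0.695.

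Average linkage of the pairs, joined at a rho of 0.35, gave 4 blocks of several genes and 6 genes alone, as the map of pairwise rho shows. The first block had 16 genes, with IFIT1, IFIT2, IFIT3, IFIT5, IFI44, EIF2AK2, DDX58, IFIH1, DDX60, HERC6, DTX3L and PARP14, and with CXCL9, CXCL10, GBP1 and GBP2 at its edge. Its pairs had a median rho of 0.628. Another block of 13 genes held ISG15, MX1, MX2, OAS1, OAS2, RSAD2, CMPK2, IFI6, USP18, ADAR, XAF1, DHX58 and IRF9, with a median rho of 0.554. A block of 8 genes held TAP1, TAP2, PSMB8, NLRC5, CD74, IRF1, BST2 and TRIM21, with a median rho of 0.522. OASL, IRF8, TAPBP and CIITA formed the smallest block with a median rho of 0.415. SAMHD1, PARP9, UBD, STAT2, PSMB9 and IFI35 joined no block. The blocks were made from the same values and are a description only.

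The split between the DDX58 block and the ISG15 block moved with a pattern common to the whole array. Their pairs had a median rho of 0.245, and 0.567 after 5 principal components of the tested transcripts had been removed. DDX58 and ISG15 had a rho of 0.207 as deposited and 0.659 without the components, and DDX58 and IRF9 -0.077 and 0.715. Component 1 alone took 27.8% of the variance, and with it removed, a choice made after the data had been seen, the median between the blocks was 0.508. This component had a rho of -0.691 over the pigs with the slope of the signal of 69 background probe sets on their GC content (3 to 25 GC bases). DDX58 had a rho of 0.691 with component 1, IFIH1 of 0.788 and EIF2AK2 of 0.783, whereas ISG15 had -0.212, IRF9 -0.462, TAPBP -0.643 and CIITA -0.663. Component 1 also had a rho of 0.567 with the mean standardised signal of 6 X-linked genes and of -0.482 with that of 12 T and NK cell markers. What component 1 stands for, and its part in the split, were not tested. The 36 pairs below -0.3 were 0 after removal of component 1 or of 5 components. Of all tested pairs 13.7% lay below -0.3 as deposited, and 2.41% or 0.146% after these removals. Of the 1081 pairs 261 or 288 then exceeded 0.5 (24.1% or 26.6%), against 0.243% or 0.0092% of all tested pairs. The block of 4 genes had a median rho of 0.0464 with 5 components removed.

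**Figure D2:**
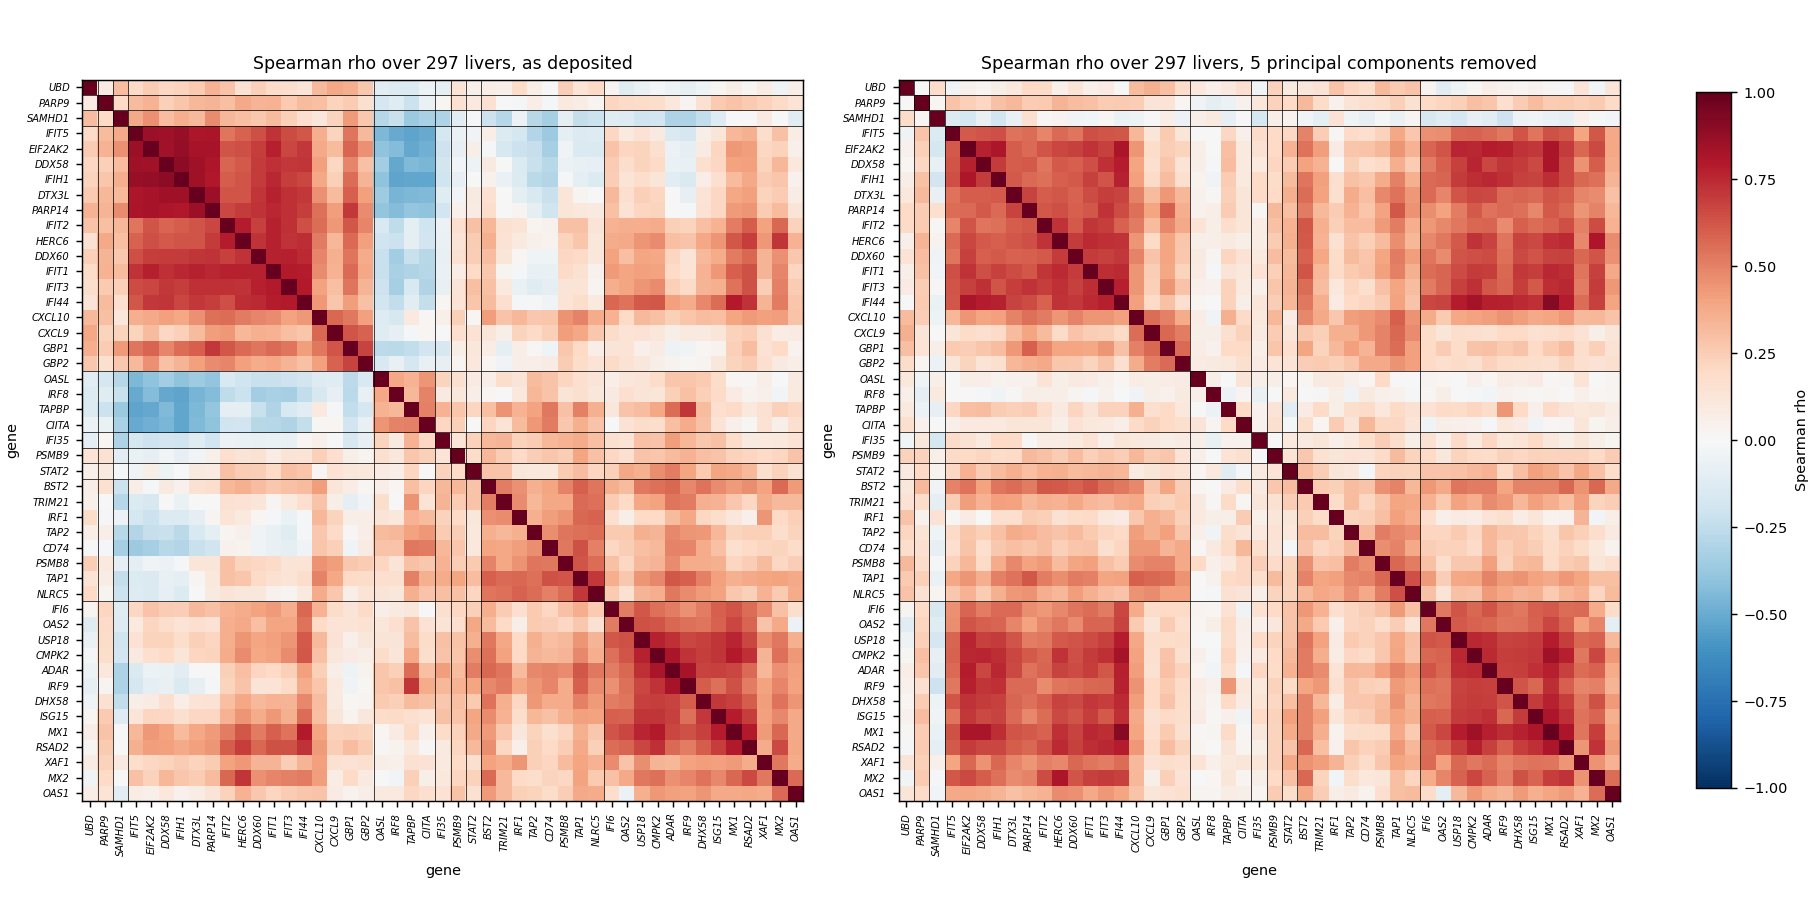
Spearman's rho (colour, from -1 in blue to 1 in red) between the 47 genes over all livers, with the genes on both axes in the order of the clustering and lines between blocks, for values as deposited on the left and with 5 principal components removed on the right. On the left the DDX58 block and the ISG15 block stand apart with a median rho of 0.245 between them, and on the right they run together at 0.567.

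Neighbours on a chromosome were often co-expressed. In the gene order of the RefSeq annotation of Sscrofa11.1, 46 of the genes could be placed, and 17 pairs lay at most 5 genes apart. These pairs had a median rho of 0.571, against 0.241 for the other 1064 pairs, and 11 of the 17 exceeded 0.5. IFIT1 and IFIT3 had a rho of 0.796 (r = 0.875), RSAD2 and CMPK2 of 0.728 (r = 0.837), and GBP1 and GBP2 of 0.674 (r = 0.691). PSMB8 and TAP1 had a rho of 0.632 (r = 0.634), and MX1 and MX2 of 0.572 (r = 0.670). Without pigs 2313 and 2317 the rho of these pairs was 0.7915, 0.7224, 0.6706, 0.6249 and 0.5629 in this order, and r is given with all pigs only. OAS1 and OAS2, which lie side by side and encode enzymes of the same pathway, had the lowest rho of the 17 pairs at -0.055 (r = 0.041), and -0.090 after removal of 5 components. Both nevertheless had their highest values in pigs 2313 and 2317, with 12.56 and 12.38 for OAS1 and 12.19 and 11.88 for OAS2. Values of near-identical family members such as the IFIT genes are uncertain where a probe set could bind more than 1 of them.

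The mean of the standardised signals of the 22 effectors was used as a score to find the genes most like them. Of the genes outside the list, those with the highest rho with the score over all livers were RTP4 (0.843), ZNFX1 (0.800), EPSTI1 (0.712), LGALS9 (0.626), SP140 (0.605), LGALS3BP (0.604), ISG12(A) (0.591), PARP12 (0.583), B2M (0.519) and UBA7 (0.517). UBA7 activates ISG15 for conjugation and B2M is the light chain of MHC class I. In 9 of these 10 genes pig 2313 had the highest value, and B2M was highest in pig 2317. Without the pigs 2313 and 2317 the rho lay between 0.507 (UBA7) and 0.840 (RTP4). Of the effectors themselves, IFI44 and MX1 had the highest rho with a score made without the gene in question, 0.834 and 0.818, and OASL (-0.111), SAMHD1 (0.079) and IFI35 (0.090) the lowest.

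The role scores were then set beside markers of liver and blood cells and beside other genes of antigen presentation, with no test of the differences. The effector score had a rho of 0.163 with 12 tested markers of T and NK cells, 0.211 with 9 macrophage markers, 0.021 with 4 markers of B and plasma cells and 0.042 with 8 hepatocyte markers. The score of the immunoproteasome and loading genes had a rho of 0.643 with the markers of T and NK cells, 0.540 with macrophage markers, 0.706 with 9 genes of MHC class I and its peptide supply and 0.679 with 6 MHC class II chains. CIITA and CD74 together had 0.798 with the class II chains and 0.642 with the T and NK cell markers, and the chemokines had 0.352 with the T and NK cell markers. PSMB6 and PSMB7, catalytic subunits of the standard proteasome, gave a score that correlated at a rho of 0.356 with the immunoproteasome genes and of 0.055 with the effectors. Markers of neutrophils had a rho of 0.485 with the immunoproteasome and loading score and 0.467 with the class II score. Those of dendritic cells had 0.357 and 0.476, and those of endothelium 0.377 and 0.400. Markers of B and plasma cells had only 0.194 and 0.164, and hepatocyte markers -0.134 and -0.032. Single markers differed from their list, as CD163 had -0.204 and -0.359 among the macrophage markers. The part of these cells in the levels of the antigen presentation genes was not tested. The marker levels themselves moved with component 1, at a rho of -0.482 for T and NK cells and -0.453 for macrophages. The effector score had a rho of 0.194 with it. With 5 components removed the effector score had a rho of 0.269 with T and NK cell markers and 0.298 with macrophage markers. It had 0.061 with B and plasma cell markers and -0.099 with hepatocyte markers. The other role scores were not recomputed in this way, so their difference from the effectors is known only as deposited.

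The first 2 digits of the animal number, which may stand for time or origin, gave 9 number series of 9 to 94 pigs. Of the 46 tested genes 29 differed between the series at an FDR of 1% (limma moderated F-test over all pigs), against 88% of the tested transcripts, so the share of these genes that passed was below the background. The series took a median of 8.65% of the variance of ranks in these genes, against 14.5% over the tested transcripts, and 6 of the 46 lay above that tested median. DDX58 had the largest share with 23.6%, and its mean was highest in series 22 at 9.27 ± 0.54 (SD, n = 19) and lowest in series 26 at 7.74 ± 0.55 (SD, n = 9; limma FDR = 3.21e-13). IFIH1 had 8.19 ± 0.41 in series 22 and 6.72 ± 0.42 in series 26 (limma FDR = 3.13e-12), and EIF2AK2 had 8.15 ± 0.39 and 6.65 ± 0.52 (limma FDR = 1.16e-08). IRF8 was highest in series 27 at 6.16 ± 0.21 (n = 20) and lowest in series 22 at 5.88 ± 0.22 (limma FDR = 8.18e-12).

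ISG15, MX1, USP18, STAT2 and IFI6 did not pass the test between series, with a limma FDR of 0.142, 0.184, 0.683, 0.524 and 0.733. By role 11 of 22 effectors, 6 of 8 sensors and factors, 4 of 6 modifying enzymes, 5 of 6 immunoproteasome and loading genes, 2 of 2 MHC class II genes and 1 of 2 chemokines passed. Series 26, the smallest, was the lowest for 15 genes and the highest for 12, and series 22 was the highest for 13. TAP1 was highest in series 26 at 7.79 ± 0.24 and lowest in series 21 at 7.39 ± 0.26 (limma FDR = 0.000153), the opposite end from DDX58. DDX58, IFIH1, IRF8 and CIITA, with a limma FDR of 1.38e-09 or less, had a rho of 0.691, 0.788, -0.603 and -0.663 with component 1. The part of this component in the series differences was not tested.

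**Figure D3:**
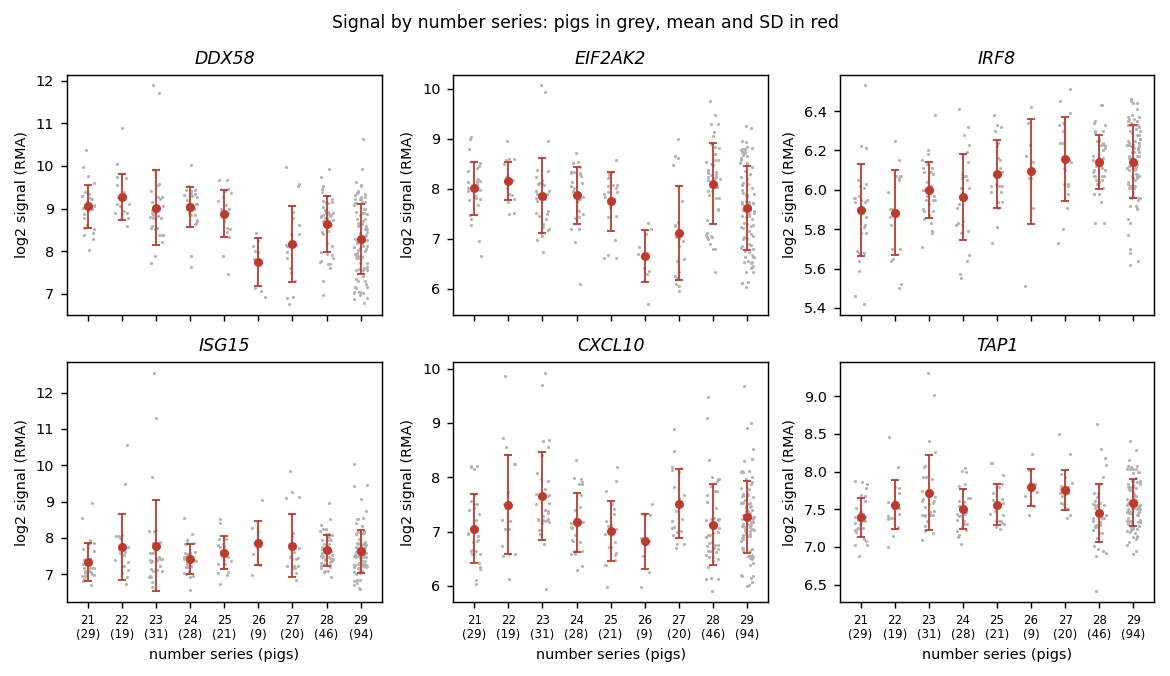
Log2 signal of 6 genes (vertical axes, each with its own range) by number series (horizontal axis, number of pigs in brackets), with pigs in grey and the mean and SD in red. DDX58 and EIF2AK2 are lowest in series 26, IRF8 is lowest in series 22, and the series means of ISG15 lie between 7.33 and 7.86.

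The traits were correlated with each transcript over 289 pigs at an FDR of 1%. With LEA 0 of the 46 genes passed by Spearman correlation, and 0 by linear regression with limma, against 0.823% of the tested transcripts (0.506% higher and 0.317% lower). With FA 1 gene passed, lower with more fat, against 0.329% of the tested transcripts (0.189% higher and 0.141% lower). With MFR 1 gene passed, again lower, against 0.189% (0.108% higher and 0.0803% lower). The passing gene was XAF1 in both. At an unadjusted p under 0.05, which 21.8%, 11.1% and 8.62% of the tested transcripts reached for LEA, FA and MFR, stood 5, 5 and 6 of the 46 genes.

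XAF1, an interferon-induced protein that promotes cell death, had log2 signals of 7.71, 8.94 and 11.11 from lowest to highest. Its rho with FA was -0.254 (r = -0.241, permutation p of rho = 3e-05 and of r = 2e-05, FDR = 0.00604 over all tested transcripts) and its rho with MFR was -0.254 (r = -0.259, permutation p = 3e-05 and 1e-05, FDR = 0.00762). FA is part of MFR, so these are not independent results. Without the 2 pigs farthest from the trait's median, r was -0.249 with FA and -0.255 with MFR. Within number series the rho was -0.253 with FA (FDR = 0.00499) and -0.278 with MFR (FDR = 0.00131), and it was negative in 9 of 9 series for both traits, from -0.074 in series 28 to -0.481 in series 27 for FA. Without pigs 2313 and 2317 it was -0.249 with FA (FDR = 0.00702) and -0.247 with MFR (FDR = 0.0096). With adjustment for 6 X-linked genes it was -0.197 with FA (FDR = 0.00835). These 6 genes were themselves all negative with FA (median rho -0.163, 2 passed the FDR) and with MFR (median -0.191, 2 passed). With LEA 5 of the 6 were positive (median 0.187). The part of the X-linked genes, or of sex, in the XAF1 result was not tested. With LEA the rho of XAF1 was 0.128 (permutation p = 0.0297, FDR = 0.177), and 0.247 within series (FDR = 0.0293), positive in 9 of 9.

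The call of XAF1 was lost when components of the array were removed, with a rho of -0.158 for FA (FDR = 0.192) and -0.204 for MFR (FDR = 0.0351) after 5 components, and -0.056 and -0.067 (FDR = 1 each) after 17. Component 3 had a rho of 0.556 with XAF1 and of -0.251 with FA, and its part in the result was not tested. The call was narrowly lost for FA with Pearson correlation (FDR = 0.0122) and limma regression (FDR = 0.0112). For MFR it was narrowly lost with all probe sets tested (FDR = 0.0102) and without the 2 farthest pigs (FDR = 0.0117). With adjustment for 6 X-linked genes the call for MFR was lost with a smaller rho (-0.192, FDR = 0.0195). In pigs with odd numbers (n = 139) the rho with FA was -0.350 (FDR = 0.0517) and in pigs with even numbers (n = 150) it was -0.144 (FDR = 0.772). The other XAF1 probe set, with a mean signal of 2.10 below the filter, had a rho of -0.089 with the one used.

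**Figure D4:**
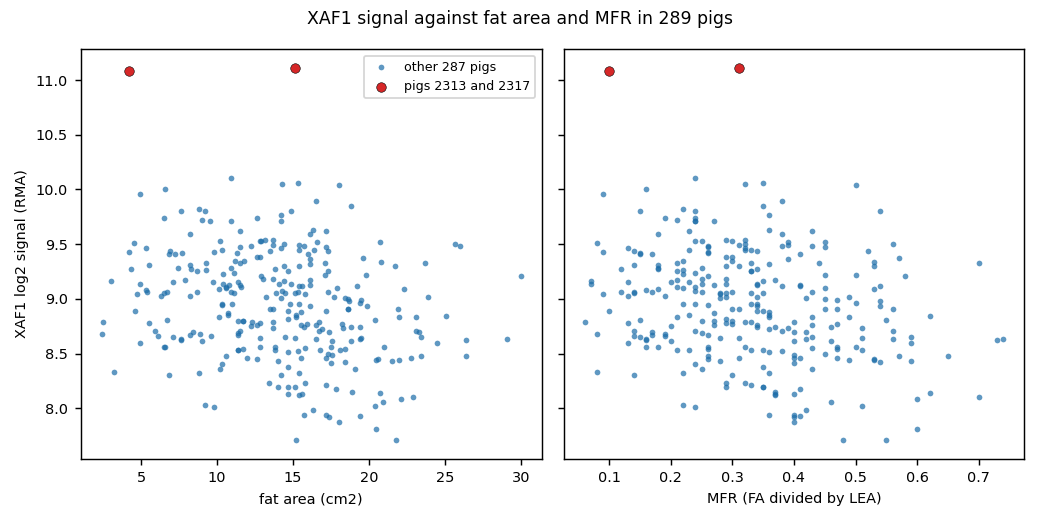
XAF1 log2 signal (vertical axis) against FA in cm2 (left) and MFR (right) in 289 pigs, with 1 point per pig and pigs 2313 and 2317 in red. Signals decrease with FA and with MFR at a rho of -0.254 each, within a wide scatter, and the 2 red pigs lie above all the others.

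No other gene passed the FDR with a trait. For LEA the smallest p was that of STAT2 with a rho of 0.183 (r = 0.121, permutation p = 0.00171 and 0.0407, FDR = 0.0468), followed by UBD with 0.159 (r = 0.136, permutation p = 0.00691 and 0.0217, FDR = 0.0893), IFIT2 with 0.158 (FDR = 0.0895) and SAMHD1 with 0.123 (FDR = 0.196). For MFR UBD had a rho of -0.182 (r = -0.183, permutation p = 0.00184 and 0.00177, FDR = 0.142), SAMHD1 -0.172 (FDR = 0.192), HERC6 -0.148 (FDR = 0.338) and IFI6 -0.140 (FDR = 0.395). The same 4 genes followed XAF1 for FA, with a rho of -0.149 for SAMHD1, -0.148 for UBD, -0.143 for HERC6 and -0.134 for IFI6 (FDR between 0.234 and 0.319). The genes with the longest tails were not among them: ISG15 had a rho of -0.111 with FA (FDR = 0.476), MX1 of -0.105 (FDR = 0.511) and RSAD2 of -0.036 (FDR = 0.90).

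Signs were uneven. With FA 40 of the 46 genes had a negative rho (median -0.033), against 53.3% of the tested transcripts (median -0.006), and with MFR 36 of 46 (median -0.042), against 49.9% (median 0.0002). With LEA 30 of 46 were positive (median 0.029), against 45.1% (median -0.013). All 8 sensors and factors and all 6 immunoproteasome and loading genes were negative with FA, at medians of -0.022 and -0.029, and 18 of 22 effectors were, at -0.035. These genes are co-expressed, so their signs are not separate observations, and after removal of 17 components 22 of 46 were negative with FA and 21 of 46 with MFR. The 8 tested receptor and JAK/STAT genes were all negative with FA (median -0.124) and with MFR (median -0.121), and 0 of them passed. Of the 13 tested interferon-stimulated genes outside the list 9 were negative with FA (median -0.059), and 0 passed. Several other lists leaned the same way with FA. Negative were 11 of 12 T and NK cell markers (median -0.075), 7 of 9 macrophage markers (-0.081) and 5 of 5 neutrophil markers (-0.094). So were 6 of 8 hepatocyte markers (-0.048) and 6 of 6 X-linked genes (-0.163). Of endothelial markers 3 of 6 were negative (-0.022), and of MHC class I genes 5 of 9 (-0.003). A negative lean with FA was thus not particular to the interferon genes.

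**Figure D5:**
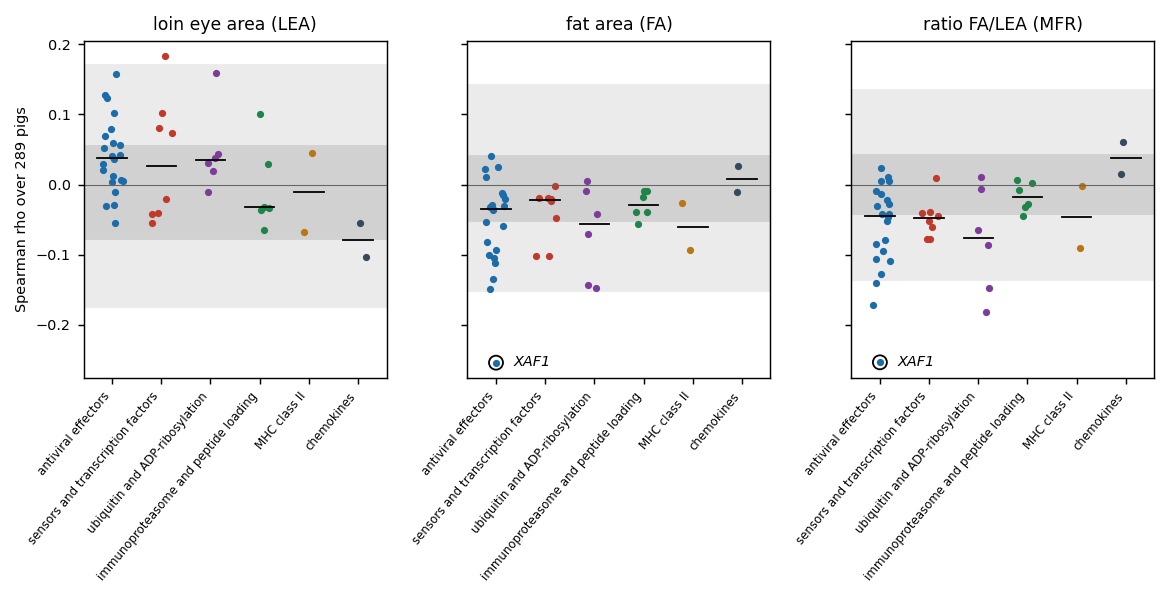
Spearman's rho (vertical axis) of the 46 tested genes with LEA, FA and MFR over 289 pigs, by role group, with the group median as a black line and the range of the middle 50% (dark grey) and 95% (light grey) of the tested transcripts behind. XAF1, ringed, is the only gene past the FDR of 1%, and it lies below the light band for FA and MFR.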

How the data were processed

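Liver RNA of 297 pigs was measured on Affymetrix Snowball arrays, 1 per pig. The authors normalised all arrays together in Expression Console (robust multichip average), and the table they deposited holds log2 signals with 2 decimals. GCOS 1.1.1 is named in the submitters' processing notes. Of 47845 probe sets 123 controls were left out, and of the rest 24909 were tested, those whose 20th percentile over the pigs was 5.32 or more, in place of the study's detection filter. Symbols came from the platform annotation, in which 26426 probe sets have 1 symbol, 0 have several and 21296 have none. Old symbols may miss a gene.

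Per-pig traits and number series came from the labels. The study's covariates (genetic similarity, components of population structure, gender, carcass weight) were not used here. Spearman correlations over 289 pigs had p from the t distribution, with Benjamini-Hochberg adjustment over 24909 transcripts and calls at an FDR of 1%. Number series were compared by the moderated F-test of limma, which treats pigs as replicates. Named relations had 100000 permutations, both tails counted. Spread, scores (means of standardised signals) and co-expression are descriptions, except that the closest pair in each role group has a permutation p. Components are principal components of the tested transcripts.

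The members and lists were chosen with earlier results of these data known. Every member could be named. Full statistics were given to members past the FDR and, failing that, to the 5 with the smallest p per trait, to the closest pair in each role group, and to the 10 other genes closest to the effector score. The alternatives were Pearson correlation, linear regression with limma, ranks centred within series, removal of 5 or 17 components, all probe sets, leaving out the 2 farthest pigs, odd or even animal numbers, adjustment for 6 X-linked genes, the Kruskal-Wallis test, and the mean of all probe sets of a gene. Removal of component 1, marker scores with 5 components removed, and leaving out pigs 2313 and 2317 were added after seeing the data. A planned description of promoter motifs was not run, and no sequence is printed. The tests were tried on simulated data. R 4.3.3 with limma 3.58.1 and Python 3.11.15 were used, Python with pandas 2.3.3, scipy 1.17.1, matplotlib 3.10.9 and numpy 2.4.6.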

Additional observations from a re-analysis of the deposited data

How the results depend on the processing

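Of the recomputed summary values 46 kept within their limits and 14 moved, all of them counts of genes correlated with a trait. For FA the count of 1 (XAF1) was 0 with Pearson correlation (FDR = 0.0122), limma regression (FDR = 0.0112), 5 or 17 components removed, odd numbers or even numbers, and 2 (XAF1 and IRF8) with adjustment for 6 X-linked genes, where IRF8 had a rho of -0.250 (FDR = 0.00131). For MFR the count of 1 was 0 with 5 or 17 components removed, all probe sets tested (FDR = 0.0102), the 2 farthest pigs left out (FDR = 0.0117), odd numbers (rho = -0.344, FDR = 0.103) or even numbers (rho = -0.153, FDR = 0.651). With the X-linked adjustment it stayed at 1, but the gene was IRF8 (rho = -0.234, FDR = 0.00585), and XAF1 had -0.192 (FDR = 0.0195). For LEA the count of 0 was 1 (STAT2, rho = 0.226, FDR = 0.00718) with the X-linked adjustment. With 17 components removed UBD changed sign for LEA (-0.0116), FA (0.0095) and MFR (0.0147). The cause was not tested. The count of 29 genes differing between series (88% of the tested transcripts) was 29 with all probe sets (76.3%), with the Kruskal-Wallis test (86.6%) and without pigs 2313 and 2317 (88.1%). The median pairwise rho lay between 0.232 and 0.313 over its alternatives. No paired analysis was possible because the labels give no groups that share replicate numbers. Each pig had 1 array, so technical error could not be measured, and weak probe sets such as those of PARP9 and the interferons limit what could be seen.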

Other observations

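Genes outside the list were high in the same livers. Of all tested transcripts 167 lay more than 1 above their median in both pig 2313 and pig 2317. Of these 52 had no symbol and the rest belonged to 84 named genes, of which 32 were among the 47 described. At more than 2 above the median there were 63 transcripts, 17 without a symbol and the rest of 34 genes, 22 of them among the 47. The others, chosen after their values were seen, included ISG12(A) with 12.61 in pig 2313 and 12.15 in pig 2317 against a median of 9.02, PLAC8 with 10.48 and 10.01 against 7.05, UBA7 with 9.82 and 9.20 against 6.63, and CADM2, a cell adhesion molecule, with 9.21 and 8.67 against 5.94. ISG12(A) was also high in other livers, with up to 12.43 in them, and 47 of all pigs lay more than 1 above its median. In pigs 2885 and 2848 together 76 transcripts lay more than 1 above the median, 22 without a symbol and the rest of 36 genes, 7 of them among the 47, and 3 transcripts lay more than 2 above it.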
